A study of Mus musculus with 20 samples.

Results

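The genes described are 9 that sense nucleic acids in the cytosol, pass on that signal, or carry out necroptosis: Zbp1, Cgas, Rigi (also named Ddx58), Ifih1, Dhx58, Mavs, Sting1, Ripk3 and Mlkl. They were chosen by name, with earlier results of these data known, and were found by Ensembl identifier among the 26619 genes of the distal colon (DC) table. All 9 passed the filter on low counts that left 17893 genes for testing. Zbp1 and Cgas are also among the genes that the study selected on these same mice, so their differences are not independent evidence for that selection.

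Cells carry receptors that detect RNA or DNA where it does not belong. RIG-I (from Rigi) and MDA5 (from Ifih1) bind double-stranded RNA and signal through MAVS on mitochondria, and LGP2 (from Dhx58) modulates both. cGAS binds DNA and makes the messenger cGAMP, which activates STING. Both routes lead to type I interferon, and several of the sensors are themselves induced by interferon. ZBP1 binds nucleic acids in the left-handed Z form and can recruit the kinase RIPK3, which phosphorylates MLKL. Phosphorylated MLKL breaches the plasma membrane, a lytic death called necroptosis that has been studied in the gut epithelium. These steps are regulated on the proteins, and only transcript levels were measured here.

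The DC was taken from 20 C57BL/6 mice after 3 weeks on 1 of 4 diets, with 5 mice per diet. Every mouse had first eaten the Total Western Diet (TWD), a feed modelled on what people in the United States eat, from 3 weeks of age for 6 weeks. One group stayed on the TWD, here 0% RPS, and the others received the TWD with 2, 5 or 10% resistant potato starch (RPS), a starch that escapes digestion in the small intestine and is fermented by bacteria in the large bowel. One library of polyadenylated RNA was sequenced per mouse, and values are CPM, the counts of a gene per megacount (M) of its library after scaling of the libraries. Groups follow the description label. For mice RS10_717, RS10_725 and RS10_748 the treatment label names another RPS level, and the results without these 3 mice are given where they matter.

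Total counts ranged from 18.4 to 35.0 M per mouse. They were 31.3 to 35.0 M at 0% RPS and 18.4 to 26.6 M at 10% RPS, and each RPS diet was sequenced less deeply than 0% RPS (exact two-sided permutation p = 0.0079, the smallest that 5 against 5 mice allow), so depth and diet cannot be told apart. The libraries held epithelial, muscle and distal Hox transcripts, as the labelled tissue should, though the summed level of 6 distal Hox genes was 745 to 977 CPM on 0% RPS and 651 to 749 CPM on 10% RPS (exact two-sided permutation p = 0.0159, adjusted over 42 tests to 0.0952). Mouse RS10_721 of the 5% RPS diet carried 6647 CPM of pancreatic acinar transcripts, mouse RS10_719 of the same diet had the highest level of Zbp1, and results that rest on either are given without it. Mouse RS10_784 of the 10% RPS diet carried 916 CPM of the pancreatic markers, where the other 18 mice had 368 to 626 CPM, mostly of Cela1. Whole tissue was sequenced, so fewer cells of a type and less RNA per cell cannot be told apart.

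Per kilobase of the canonical transcript, the 9 genes covered a wide range of levels. Mavs had the highest mean over the 20 mice, 13.3 CPM per kilobase, followed by Ripk3 at 12.1, Ifih1 at 10.8, Zbp1 at 9.30 and Sting1 at 8.14 CPM per kilobase. Rigi at 4.70, Mlkl at 4.18 and Dhx58 at 3.66 CPM per kilobase stood lower, and Cgas was lowest at 1.002. On this scale 24.2% of tested genes lay below Cgas and 72.6% below Mavs. The ranks depend on the transcript chosen: with the union of all annotated exons as length, Ripk3 was at rank 1 and Mavs at rank 4. Cgas was last under both lengths. In the GENCODE annotation of GRCm39, exons of Cgas, Mavs, Mlkl and Dhx58 overlap those of genes on the opposite strand over 1785, 606, 672 and 272 bases. Per the study's methods the libraries were made with a stranded kit. The strand setting of the counting is not given in the sources used here, so a share of their reads may belong to these partners.

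**Figure D1:**
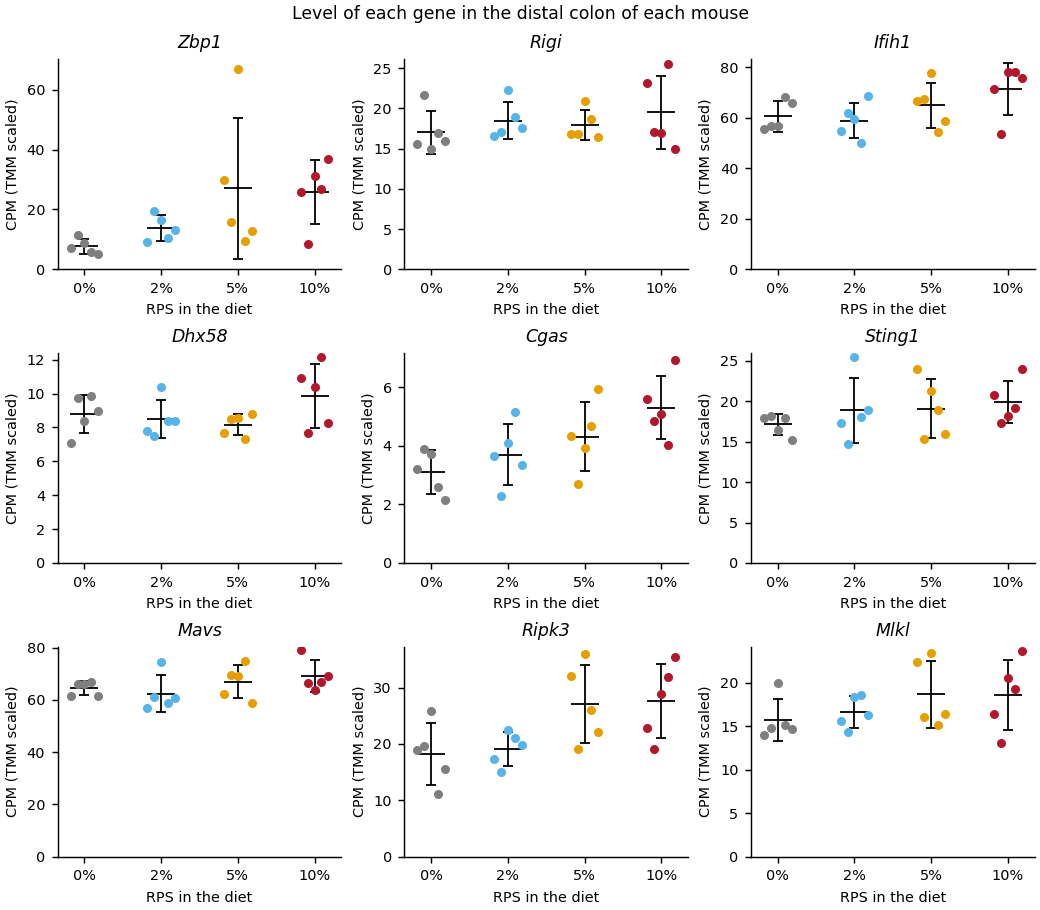
Level of each of the 9 genes (vertical axis, CPM after TMM scaling, starting at 0) against the percent of RPS in the diet. Each point is 1 mouse, the horizontal mark is the mean of 5 mice and the bar is 1 SD. Zbp1 shows the widest scatter, with mouse RS10_719 at 67.1 CPM, and Cgas is the only gene whose 10% RPS mice all lie above the 0% RPS mice.

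Zbp1, the sensor of Z-form nucleic acids (chromosome 2, 173033815 to 173060724, minus strand, 8 exons in the canonical transcript), showed the largest difference between diets of the 9 genes. Its level was 7.09, 11.4, 8.95, 5.77 and 5.00 CPM in the 5 mice on 0% RPS. On 10% RPS it was 26.0, 8.43, 31.2, 26.7 and 36.8 CPM. Of the 10% RPS mice, 4 lay far above every 0% RPS mouse, and the fifth, mouse RS10_727, lay inside the range of the 0% RPS mice.

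The log2 fold change of Zbp1 at 10% RPS was 1.76 ± 0.49 (SE), a fold of 3.39, with a p of 0.0022 before adjustment. It did not pass the threshold after adjustment over all tested genes (edgeR adjusted p = 0.113). DESeq2, the test that the study used, gave nearly the same log2 fold change, 1.77, with an adjusted p of 0.0168, and called it. Without mouse RS10_727, edgeR gave 1.99 with an adjusted p of 0.0415, and without mice RS10_719 and RS10_721 it gave 1.76 with an adjusted p of 0.0496. Of the 20 fits that left out 1 mouse, only that without mouse RS10_727 called Zbp1, and the adjusted p went up to 0.323. That fit called 188 genes of the table, where the fit of all mice called 7.

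On 5% RPS, the Zbp1 level was 29.7, 15.9, 67.1, 9.60 and 12.9 CPM, a 6.99-fold range among mice on the same diet. The mean of 27.1 ± 23.6 CPM (SD, n = 5) rests on mouse RS10_719. The log2 fold change against 0% RPS was 1.83 (edgeR adjusted p = 0.325), and without mouse RS10_719 it was 1.16. DESeq2 called Zbp1 here with an adjusted p of 0.0406. That call was lost without mouse RS10_719 (DESeq2 adjusted p = 0.368) and, narrowly, without mouse RS10_703 of the 0% RPS diet (DESeq2 adjusted p = 0.0504).

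On 2% RPS, Zbp1 was at 9.05, 19.6, 16.5, 10.4 and 13.2 CPM, with 3 of 5 mice above the highest 0% RPS mouse. The log2 fold change was 0.85 ± 0.48 (SE) and did not pass the test (edgeR adjusted p = 0.9997). Its linear trend over RPS percent was 1.69 ± 0.53 (SE) log2 units per 10 percentage points. This trend did not pass in edgeR (adjusted p = 0.0939) and passed in DESeq2 (adjusted p = 0.0153). Without mice RS10_719 and RS10_721 it passed in edgeR (adjusted p = 0.0260). With 1 mouse left out, it passed in 2 of the 20 edgeR fits, with adjusted p-values up to 0.203. Between 5% and 10% RPS the direction could not be told: the log2 difference was -0.07 with all mice and 0.61 without mouse RS10_719.

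The sequence just upstream of Zbp1 is shown because its level followed that of interferon-stimulated genes across mice, as described further on. Interferon-stimulated response elements, bound by IRF proteins, contain the core GAAANNGAAA. The bases below run 5′ to 3′ along the gene's strand and end 1 base before the canonical start of transcription, read from the GRCm39 genome at chr2:173060725-173060855, minus strand. Capitals mark every base covered by a match to the core on either strand.

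Zbp1: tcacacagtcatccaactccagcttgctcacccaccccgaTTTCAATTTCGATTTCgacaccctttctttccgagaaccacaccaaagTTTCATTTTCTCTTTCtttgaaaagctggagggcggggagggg

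The 300 bases before the Zbp1 start held 4 overlapping matches in 2 runs, covering bases 91 to 76 and 43 to 28 upstream, all with the core on the strand opposite to the gene. A match in such a window was found for 598 of 15415 tested protein-coding genes, 3.88%, and for 20 of 48 genes in a list of interferon-stimulated genes, 41.7%. Of the 9 genes, only Zbp1 and Mlkl had one. The Mlkl window lies inside the annotated gene, since another transcript starts farther upstream. The related element TTCNNNGAA, whose reverse complement has the same letters, occurred in 8.17% of the windows, among them those of Zbp1 at bases 63 to 55 and 30 to 22 upstream, the latter overlapping a core match, and of Sting1. A match is a description of letters, not a bound site, and a window without one says nothing of other elements.

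Cgas, which encodes the DNA sensor cGAS (chromosome 9, 78337802 to 78350535, minus strand), differed less than Zbp1, and its diet means were ordered by RPS. Its level was 3.20, 3.89, 3.73, 2.59 and 2.14 CPM on 0% RPS and 5.59, 4.84, 5.08, 4.04 and 6.94 CPM on 10% RPS. All 5 mice on 10% RPS lay above all 5 on 0% RPS, although the highest control at 3.89 and the lowest 10% RPS mouse at 4.04 CPM nearly touch. The groups did not overlap in this direction for 1.13% of tested genes.

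The 2% RPS mice had 3.66, 2.29, 4.09, 5.15 and 3.34 CPM of Cgas, and the 5% RPS mice 4.33, 2.68, 3.92, 4.67 and 5.94 CPM. The diet means stood at 3.11, 3.71, 4.31 and 5.30 CPM in order of RPS, with wide overlap between neighbouring diets. At 10% against 0% RPS the log2 fold change was 0.77 ± 0.22 (SE), a fold of 1.70, which missed the threshold in edgeR (adjusted p = 0.113) and passed it in DESeq2 (adjusted p = 0.0297).

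The linear trend of Cgas over RPS percent, 0.74 ± 0.20 (SE) log2 units per 10 percentage points, lay just outside the threshold (edgeR adjusted p = 0.0502). It passed when libraries were scaled by RLE size factors (adjusted p = 0.0473), in 7 of the 20 fits that left out 1 mouse, and in DESeq2 (adjusted p = 0.0096). Cgas counts were low, 69 to 177 reads per mouse, and its level correlated with the total count of the library at r = -0.63 over the 20 mice, or -0.21 after removal of the diet means. The part of depth in its difference was not tested.

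Sting1, the adaptor downstream of cGAMP (chromosome 18), did not show a comparable difference. Its level was 17.9, 18.2, 16.5, 17.9 and 15.2 CPM on 0% RPS and 20.8, 17.3, 18.2, 19.2 and 23.9 CPM on 10% RPS. The groups overlapped, with 3 of the 10% RPS mice above the highest control. On the log2 scale Sting1 differed by 0.21 ± 0.14 (SE) (edgeR adjusted p = 0.473).

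Among the RNA sensors, Ifih1 (chromosome 2, 62425714 to 62476607, minus strand), the gene of MDA5, had the highest counts. Its level was 55.5, 56.7, 56.7, 68.4 and 65.9 CPM on 0% RPS and 71.5, 53.5, 78.1, 78.2 and 75.7 CPM on 10% RPS. Of the 10% RPS mice, 4 lay above every control, while mouse RS10_727 was below every control.

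That mouse, the most shallowly sequenced of the 20 at 18.4 M counts, also had the lowest Zbp1, Ripk3, Mlkl and Dhx58 of its diet. The Ifih1 log2 fold change at 10% RPS was 0.24 ± 0.11 (SE) (edgeR adjusted p = 0.313), or 0.33 without mouse RS10_727 (adjusted p = 0.0725). Its trend over RPS percent, 0.27 ± 0.10 log2 units per 10 percentage points, had an adjusted p of 0.140, and of 0.0244 without mouse RS10_727. No other edgeR fit that left out 1 mouse passed, with adjusted p-values of the trend up to 0.282.

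Rigi (chromosome 4, 40203772 to 40239852, minus strand), the gene of RIG-I, differed little between diets. It was at 15.6, 21.7, 14.9, 16.9 and 15.9 CPM on 0% RPS and at 23.1, 17.1, 17.0, 25.6 and 14.9 CPM on 10% RPS. On 10% RPS, 2 mice stood above all controls and the other 3 lay among them. On the log2 scale Rigi differed by 0.20 ± 0.14 (SE) (edgeR adjusted p = 0.511).

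Dhx58 (chromosome 11, 100585710 to 100595097, minus strand) encodes LGP2, which lacks the signalling domain of its relatives. It measured 7.09, 9.71, 8.36, 9.88 and 8.98 CPM on 0% RPS and 10.9, 7.67, 10.4, 12.2 and 8.24 CPM on 10% RPS, with overlapping groups. The log2 fold change was 0.17 ± 0.13 (SE) at 10% RPS (edgeR adjusted p = 0.579) and -0.11 at 5% RPS. It was the gene with an unadjusted p under 0.05 between 10% and 5% RPS, at a log2 difference of 0.28 (edgeR adjusted p = 0.858).

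Mavs (chromosome 2, 131075442 to 131096740, plus strand), the mitochondrial adaptor that both RNA sensors use, was the steadiest of the 9 genes. Over the 20 mice it ranged from 56.9 to 79.2 CPM, a coefficient of variation of 8.91%, against 79.4% for Zbp1. It was at 61.6, 66.2, 66.1, 67.0 and 61.6 CPM on 0% RPS and at 79.2, 66.4, 63.9, 66.8 and 69.2 CPM on 10% RPS. The log2 fold change was 0.10 ± 0.08 (SE) (edgeR adjusted p = 0.584), with an interval of 2 SE from -0.06 to 0.26 that leaves out a 1.5-fold difference.

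Ripk3 (chromosome 14, 56022452 to 56026324, minus strand), the kinase that links ZBP1 and other inducers to MLKL, stood higher on the diets with more RPS. It was at 18.9, 19.6, 25.9, 11.0 and 15.6 CPM on 0% RPS and at 17.3, 15.1, 22.4, 21.1 and 19.8 CPM on 2% RPS. It was at 32.1, 19.1, 36.0, 25.9 and 22.2 CPM on 5% RPS and at 22.8, 19.1, 28.8, 31.9 and 35.3 CPM on 10% RPS. The means of 18.2 and 19.1 CPM on 0% and 2% RPS and of 27.1 and 27.6 CPM on 5% and 10% RPS formed a step between 2% and 5% RPS, with overlap of all groups.

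At 10% RPS the log2 fold change of Ripk3 was 0.60 ± 0.21 (SE), a fold of 1.52 (edgeR adjusted p = 0.183). At 5% RPS it was 0.57 ± 0.21 (adjusted p = 0.406), and between 5% and 2% RPS it was 0.50 ± 0.21 (adjusted p = 0.746). The linear trend was 0.66 ± 0.20 log2 units per 10 percentage points and missed the threshold in edgeR (adjusted p = 0.0836). It passed in DESeq2 (adjusted p = 0.0223) and in the edgeR fits without mouse RS10_704 (0.0428) or mouse RS10_727 (0.0255). The other edgeR fits that left out 1 mouse did not pass, with adjusted p-values up to 0.214.

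Mlkl (chromosome 8, 112036296 to 112065168, minus strand), the executioner of necroptosis, was at 14.1, 14.8, 20.04, 15.2 and 14.6 CPM on 0% RPS. On 10% RPS it was at 16.5, 13.1, 20.6, 19.3 and 23.7 CPM. The groups overlapped widely, with 2 mice of the 10% RPS diet above the highest control and 1 below the lowest. The difference on the log2 scale was 0.24 ± 0.15 (SE) (edgeR adjusted p = 0.459).

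**Figure D2:**
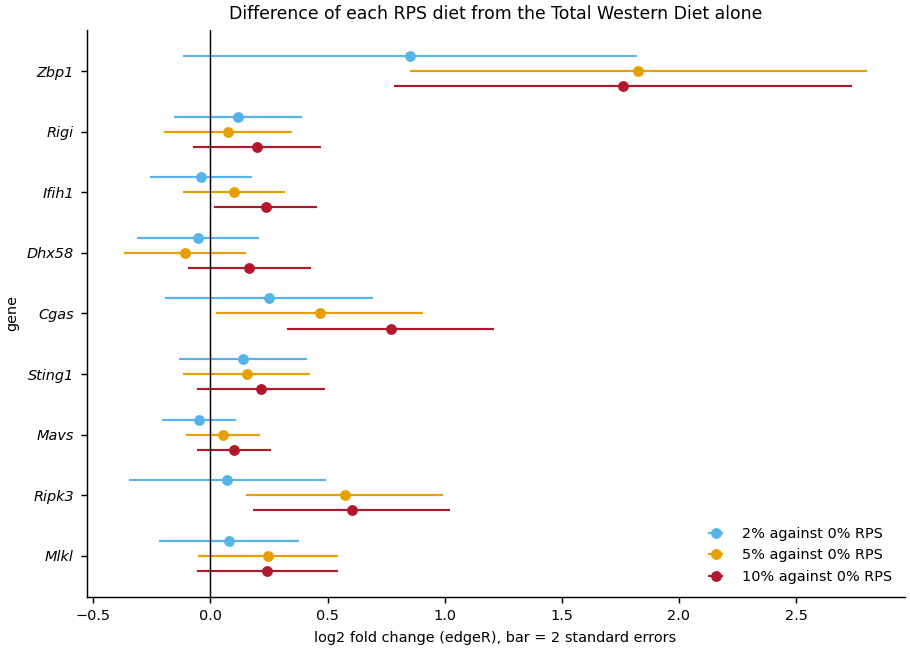
Log2 fold change of each gene (vertical axis) on 2, 5 and 10% RPS against 0% RPS, by edgeR. Points are estimates from 5 against 5 mice and bars are 2 standard errors to each side. Zbp1, Cgas and Ripk3 lie farthest to the right at 10% RPS, at 1.76, 0.77 and 0.60, and Mavs lies nearest to 0 with the shortest bar.

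Read across the 9 genes, the test with edgeR called 0 of them in any of the comparisons, with 4 at an unadjusted p under 0.05 at 10% RPS, and DESeq2 called 2, Zbp1 and Cgas. At 10% against 0% RPS, edgeR called 0.0391% of tested genes and DESeq2 0.811%. The 4 genes with an unadjusted p under 0.05 were Zbp1, Cgas, Ripk3 and Ifih1, all higher on 10% RPS, against 7.32% of tested genes that were higher at that p. For Zbp1, Cgas and Ifih1, at least 4 of the 5 mice on 10% RPS lay above every mouse on 0% RPS, which held for 4.75% of tested genes. All 9 log2 fold changes were above 0, as were 46.8% of those over all tested genes. The median of the 9 was 0.24 and that of all tested genes -0.01.

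At 5% against 0% RPS, edgeR called 0 of the 9 genes and 0% of tested genes, and 3 of the 9, Zbp1, Ripk3 and Cgas, were higher at an unadjusted p under 0.05, against 4.69% of tested genes. DESeq2 called Zbp1 and 0.112% of its tested genes. At 2% against 0% RPS, none of the 9 had an unadjusted p under 0.05 in edgeR or DESeq2, where 0.693% of genes tested by edgeR were higher at that p and 0% were called. DESeq2 called 0 of the 9 and 0.00386% of its tested genes. These comparisons share the 0% RPS mice.

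Between 5% and 2% RPS and between 10% and 5% RPS, edgeR called 0 of the 9 genes and 0% of tested genes, and DESeq2 called 0 of the 9 and 0.00386% of its tested genes. Ripk3 was higher on 5% than on 2% RPS at an unadjusted p under 0.05 in edgeR, as were 3.68% of tested genes, and Dhx58 was higher on 10% than on 5% RPS, as were 2.94%.

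For the linear trend over RPS percent, edgeR called 0 of the 9 genes and 2.1% of tested genes, and 4 of the 9 had an unadjusted p under 0.05 with a positive slope, against 9% of tested genes. DESeq2 called 3, Cgas, Zbp1 and Ripk3, and 3.76% of its tested genes. For any difference among the 4 diets, 0 of the 9 and 0.0727% of tested genes were called by edgeR, and 3 of the 9 had an unadjusted p under 0.05, against 10.6% of tested genes. DESeq2 called Zbp1 (adjusted p = 0.0306) and 1.35% of its tested genes. The diet means of 3 of the 9 genes, Cgas, Ripk3 and Sting1, were higher at each of the 3 steps of RPS, as were those of 8.43% of tested genes.

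Mouse RS10_784 had the highest Zbp1, Cgas, Ripk3, Sting1 and Mlkl of the 10% RPS diet. Without it, the log2 fold changes at 10% against 0% RPS were 1.60 for Zbp1, 0.65 for Cgas and 0.50 for Ripk3, with edgeR adjusted p-values of 0.263, 0.283 and 0.387.

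The 3 mice with disagreeing labels bear on these values. Grouped by the treatment label, the log2 fold changes at 10% against 0% RPS were 1.61 for Zbp1, 0.64 for Cgas and 0.57 for Ripk3, with edgeR adjusted p-values of 0.385, 0.385 and 0.420. Without those mice they were 1.77, 0.76 and 0.68, with adjusted p-values of 0.219, 0.221 and 0.237.

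How the genes vary together from mouse to mouse was described by the Pearson correlation of log2 CPM over the 20 mice, which share diets and library preparation. All 36 pairs were positive, with a median r of 0.37, and 12 reached 0.5. The highest was that of the necroptosis pair Ripk3 and Mlkl, r = 0.81, followed by Zbp1 with Ripk3 at 0.76 and Zbp1 with Mlkl at 0.75. After removal of the diet means these were 0.80, 0.62 and 0.73, so the likeness was present among mice of the same diet. Without mouse RS10_719 the highest of the 36 was 0.77 and the median 0.33.

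Of the RNA sensors, Rigi and Dhx58 had r = 0.67, or 0.71 within diets, and Dhx58 was at place 165 among all other tested genes ranked by r with Rigi. Ifih1 ran closer to Zbp1, at 0.68, than to Rigi, at 0.22. Cgas and Ifih1 were unrelated over all mice, with r = 0.01, and had r = -0.45 within diets. Cgas and Zbp1, both higher at 10% RPS in DESeq2, had r = 0.43 over all mice and 0.02 after removal of the diet means.

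**Figure D3:**
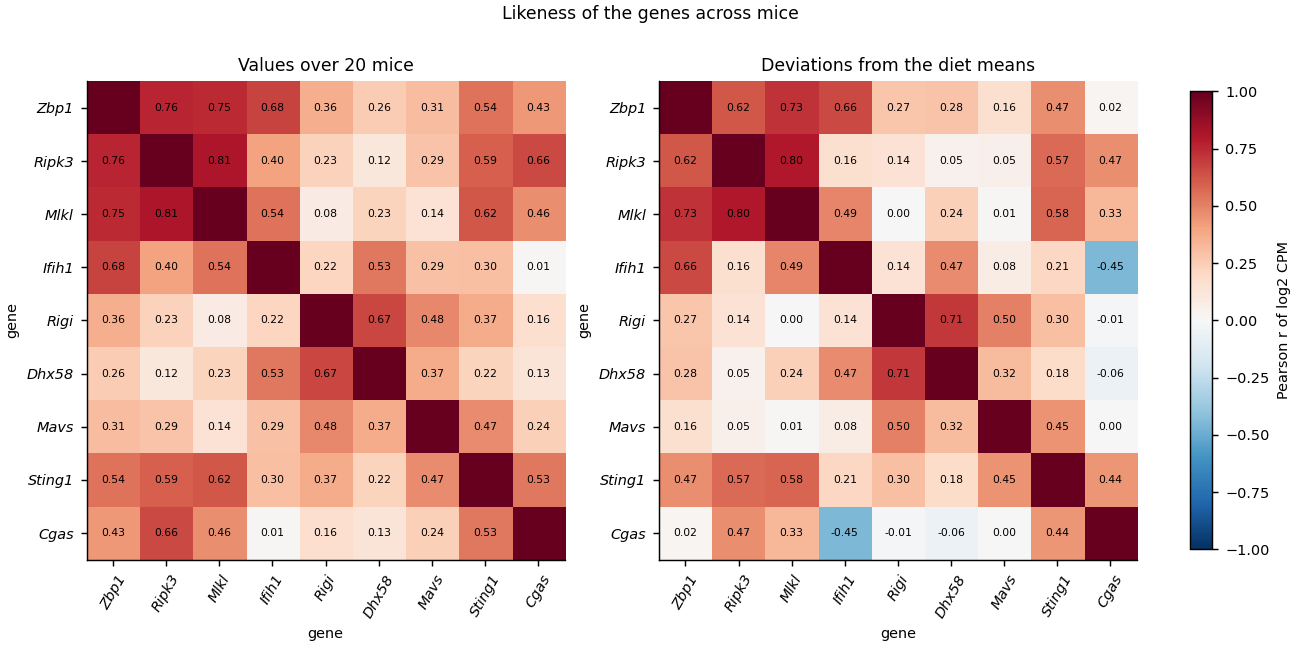
Pearson r of log2 CPM for each pair of the 9 genes over 20 mice (left) and after removal of the diet means (right). The color runs from blue at -1 to red at 1. Zbp1, Ripk3 and Mlkl form the reddest block on the left, and the pair Ifih1 and Cgas at -0.45 is the bluest cell on the right.

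**Figure D4:**
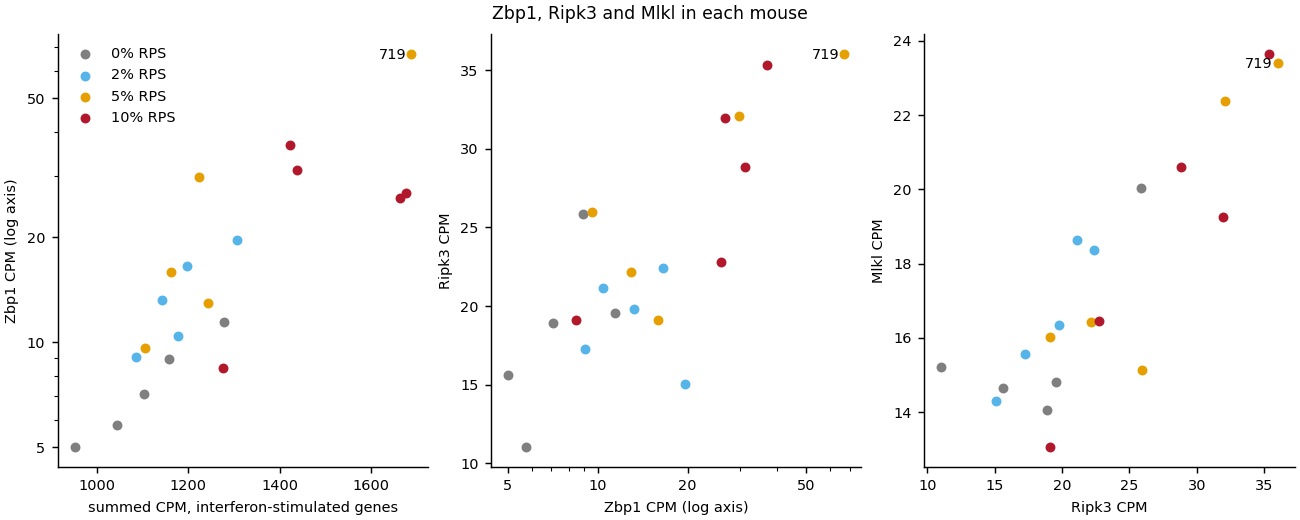
Each point is 1 of 20 mice, colored by the percent of RPS in the diet. Left, Zbp1 CPM on a log axis against the summed CPM of 49 interferon-stimulated genes. Middle, Ripk3 CPM against Zbp1 CPM on a log axis. Right, Mlkl CPM against Ripk3 CPM. Mouse RS10_719 of the 5% RPS diet is at or near the top of each plot, and mice high on one axis tend to be high on the other (r = 0.84, 0.76 and 0.81 on log2 scales).

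For each gene, the other tested genes with the most similar profile over the 20 mice were found. Zbp1 was most like Cd38, an enzyme that consumes NAD, with r = 0.96. Cd38 stayed first without mouse RS10_719 and within diets, at r = 0.95 each. The second, Spag16 at 0.93, had a mean of only 0.344 CPM. Parp12, an interferon-induced antiviral ADP-ribosyltransferase, was next with r = 0.92.

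The profile of Cgas was closest to Septin11 at r = 0.92, Tfdp1 at 0.89 and Ccnd1 at 0.89. The last 2 encode a partner of E2F factors and cyclin D1, both of the cell cycle. Ripk3 was closest to Gpx2 at 0.91, an epithelial glutathione peroxidase, to Ccne1 at 0.90, cyclin E1, and to the glycosyltransferase B3galt5 at 0.89. Mlkl was closest to Blm, a DNA helicase, at 0.89, Apobec3, an antiviral cytidine deaminase, at 0.89, and the desaturase Scd2 at 0.87.

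Ifih1 was closest to Gucy2c, the receptor of guanylin, at r = 0.93, to Ms4a12 at 0.91 and to Acad11 at 0.90. Rigi was closest to the immunoglobulin segment Igkv1-117 at 0.89, Psd3 at 0.87 and the lymphocyte activation marker Cd69 at 0.84. Dhx58 had Abcb6 at 0.83 and the interferon-inducible Rnf213 and Gvin1 at 0.82 each. The adaptors were closest to Rbm47 at 0.90, Hpca at 0.89 and Plekha8 at 0.86 for Mavs, and to Etv6 at 0.81, Lman1 at 0.79 and B3gnt5 at 0.79 for Sting1. Each was picked as the highest over all tested genes, so the values are descriptions.

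The pathways around the 9 genes were read from lists of their known partners. Nlrp6 and Casp4, named below, are also among the genes that the study selected on these mice, so their differences are not independent evidence for that selection. None of the genes in the 7 lists that follow was called by edgeR at 10, 5 or 2% against 0% RPS. Among all tested genes, 7.32% were higher and 7.87% lower at 10% RPS at an unadjusted p under 0.05. Of 28 other sensors of DNA and RNA, 5 had an unadjusted p under 0.05 at 10% RPS, all higher, and the median log2 fold change was 0.17. Nlrp6, an epithelial sensor and also the most abundant of the list, was at 217 ± 59.8 CPM on 0% RPS and 328 ± 43.3 CPM on 10% RPS (SD, n = 5), with 0.59 on the log2 scale (edgeR adjusted p = 0.154). The RNA helicase Dhx9 had 0.31 (adjusted p = 0.160).

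Of 25 partners of RIG-I-like receptors and MAVS, 5 were higher and 1 lower at that p, with a median of 0.07. Tank, a scaffold of the kinase TBK1, and Irf7, the factor that amplifies interferon induction, were the genes of this list with a linear trend over RPS percent (edgeR adjusted p = 0.0190 and 0.0489). Tank rose along RPS from 29.3 ± 3.70 CPM on 0% to 39.3 ± 4.59 CPM on 10%, and Irf7 from 45.8 ± 6.97 to 59.4 ± 5.23 CPM (SD, n = 5). The phosphatase subunit Ppp1cc, the most abundant, had a log2 fold change of 0.07.

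Of 24 nucleases and regulators of cGAS and STING, 5 were higher and 1 lower, with a median of 0.02. Samhd1, which degrades dNTPs and restrains DNA sensing, rose along RPS from 114 ± 8.49 CPM to 151 ± 20.3 CPM (edgeR adjusted p of the trend = 0.0491). The palmitoyltransferase Zdhhc3 had a log2 fold change of 0.16 and the trafficking protein Tmed2, the most abundant, one of 0.15.

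Of 29 regulators of RIPK3 and MLKL, 5 were higher and 1 lower, with a median of 0.06 and 0 with a trend. Casp8, the caspase that cleaves RIPK1 and RIPK3 and so holds necroptosis back, was at 89.2 ± 11.2 CPM on 0% RPS and 119 ± 15.8 CPM on 10% RPS, with a log2 fold change of 0.41 (edgeR adjusted p = 0.189). The inhibitor of apoptosis Xiap had 0.26 (adjusted p = 0.196). The chaperone Hsp90aa1, the most abundant, had 0.66 with wide scatter, 491 ± 155 CPM on 10% RPS (adjusted p = 0.285).

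Genes of inflammasomes and gasdermins, which serve a different lytic death called pyroptosis, included differences in both directions. Of 20 tested, 5 were higher and 2 lower, with a median of 0.09. Casp4, the sensor of cytosolic lipopolysaccharide called caspase-11 in mice, rose along RPS from 29.4 ± 6.50 CPM to 55.7 ± 9.59 CPM (SD, n = 5), which is 0.92 on the log2 scale (edgeR adjusted p = 0.0659, trend adjusted p = 0.0147). Gsdmc3 fell along RPS from 386 ± 81.9 to 242 ± 62.5 CPM, which is -0.67 on the log2 scale (adjusted p = 0.0734, trend adjusted p = 0.0191), while its neighbour Gsdmc4, the most abundant, had 0.11. The gasdermin C genes are near-identical copies whose reads may be shared. The third trend gene of this list, Il18 (slope 0.38, edgeR adjusted p = 0.0372), was noted after its value was seen.

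Of 23 interferons, receptors and signal transducers, 14 were tested, and the type I genes Ifnb1, Ifna1, Ifna2 and Ifna4 were not analysed here. Of the 14, 4 were higher with a median of 0.08, among them Stat2 at 0.35 (edgeR adjusted p = 0.156). The receptor Ifngr1, the most abundant, had 0.01.

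The list of interferon-stimulated genes stood apart from the others in its count. Of 48 tested, 23 had an unadjusted p under 0.05 at 10% RPS, all higher, with a median log2 fold change of 0.34, and 6 had a linear trend. Parp12 rose along RPS from 83.1 ± 8.90 to 115 ± 15.8 CPM (edgeR trend adjusted p = 0.0168), and Ifit1bl1 from 195 ± 48.5 to 382 ± 54.7 CPM (trend adjusted p = 0.0116). Several genes of this list are among those that the study selected on these mice, so the count is not independent evidence of its direction. The summed level of the list was 951 to 1279 CPM on 0% RPS and 1277 to 1677 CPM on 10% RPS. It correlated over the 20 mice with Zbp1 at r = 0.84, Ripk3 at 0.65, Rigi at 0.59, Ifih1 at 0.58, Cgas and Mlkl at 0.50 each, and Dhx58 at 0.47. The diet means were not removed, so differences between diets are part of these r values.

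The trends of the 8 genes named from these lists, Tank, Irf7, Samhd1, Casp4, Gsdmc3, Il18, Parp12 and Ifit1bl1, depended on the mice and their labels. Grouped by the treatment label, none passed (edgeR adjusted p of 0.168 to 0.306), and no gene of the table did. Without the 3 mice with disagreeing labels Casp4 passed (0.0385) and the others had 0.0517 to 0.121. Without mouse RS10_784 Ifit1bl1 passed (0.0318) and the others had 0.0542 to 0.129. All 8 slopes kept their sign.

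Cell type markers moved with some of the 9 genes, and their part in the differences was not tested. The summed level of 8 surface colonocyte markers was 3794 to 5323 CPM on 0% RPS and 5831 to 6678 CPM on 10% RPS, a ratio of 1.40, without overlap (exact two-sided permutation p = 0.0079, adjusted over 42 tests to 0.0952). It correlated with Ripk3 at r = 0.70, Zbp1 at 0.59 and Ifih1 at 0.57. The 10 general epithelial markers had a ratio of 1.13 and correlated with Ripk3 at 0.72, Cgas at 0.58 and Ifih1 at 0.08. The 7 goblet cell markers, with overlapping groups and a ratio of 1.26, correlated with Ripk3 at 0.71, Zbp1 at 0.55 and Mlkl at 0.54. The 8 B cell markers, also with overlapping groups, had a ratio of 1.35 and correlated with Zbp1 at 0.55. The distal Hox genes, with a ratio of 0.835, correlated with Ripk3 at -0.61, Cgas and Mavs at -0.58 each, Sting1 at -0.53 and Zbp1 at -0.48.

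Of 6 neutrophil markers, 2 passed the filter. The sum of the 6 was almost wholly Ly6g, at 181 ± 42.2 CPM on 0% RPS and 265 ± 84.8 CPM on 10% RPS (SD, n = 5). Csf3r, the other one tested, was at 1.45 and 1.79 CPM. The sum, in effect the value of 1 gene rather than of a cell type, had a ratio of 1.47. It correlated with Zbp1 and Ifih1 at 0.75 each and with Mlkl at 0.69. The sum of 7 plasma cell markers had a ratio of 1.49, from a mean of 615 to 915 CPM, and correlated with Mavs at 0.68 and Cgas at 0.65. Jchain, the most abundant of them, was at 211 ± 232 CPM on 0% RPS and 451 ± 168 CPM on 10% RPS (SD, n = 5). Most of the sum on 0% RPS thus came from the other markers, and much of its rise from Jchain. The 13 T and NK cell markers correlated with Rigi at 0.70, with a ratio of 1.03. The 12 macrophage and dendritic cell markers had a ratio of 0.83 and correlated with Zbp1 at -0.39, with 5 genes lower and 0 higher at an unadjusted p under 0.05.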

How the data were processed

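Libraries of polyadenylated RNA from the distal colon of 20 mice were examined. Per the study's methods, the authors trimmed bases of low quality, dropped ambiguous reads, aligned to GRCm39 with CLC Genomics Workbench, and the deposited table holds their count per gene and mouse without normalization. How reads matching several genes were treated is not given in the sources used here. Of 26619 identifiers, 26338 matched GENCODE vM39, which gave symbols, positions and lengths. The 9 genes and the lists of partners and markers were chosen with earlier results of these data known.

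Counts were fitted in R 4.3.3 with the quasi-likelihood test of edgeR 4.0.16 (TMM scaling, robust) over the 4 diets after filterByExpr with a minimum count of 10. Adjustment was by Benjamini-Hochberg over all 17893 tested genes. Calls required an adjusted p no larger than 0.05 with a fold of 1.5 or more, or that adjusted p alone for the linear trend and for any difference among diets. Log2 CPM used a prior count of 2. Single values per mouse were compared by exact two-sided permutation. DESeq2 1.42.0, RLE scaling, no filter, the treatment label, omission of mice, and fits of 2 diets alone were alternatives, and some omissions were added after the data were seen. The edgeR procedure was tested on simulated counts. Pairs of mice of the same diet differed by more than sampling noise (chi-square per degree of freedom of at least 9.10).

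Named besides the 9 genes were the 3 tested genes most like each over the 20 mice and, in each list, the 2 with the smallest unadjusted p at 10% against 0% RPS and the most abundant 1, of which 1 gene is not reported here. Promoter windows of 300 bases were read from GRCm39 with Python 3.11.15. No label says whether mice shared a cage or litter, so p-values measure the spread between these mice.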

Additional observations from a re-analysis of the deposited data

Results flagged for a closer look

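Within each diet, the 9 genes were searched for a mouse far from the other 4, by its gap to the next mouse as a share of the range of the group. The critical share was 0.71, and 3 of 36 groups had such a mouse, where chance gives 1.80. Ifih1 was lowest in mouse RS10_727 of the 10% RPS diet, at 53.5 CPM with the next mouse at 71.5 CPM. Mavs was highest in mouse RS10_715 of the 2% RPS diet, at 74.6 CPM with the next at 61.0 CPM. Mlkl was highest in mouse RS10_704 of the 0% RPS diet, at 20.04 CPM with the next at 15.2 CPM.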

How the results depend on the processing

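Depth was lower on each RPS diet than on 0% RPS, and Cgas had at most 177 counts per mouse. Over the 3 comparisons with 0% RPS, the trend, Ripk3 between 5% and 2% RPS, and Zbp1 and Dhx58 between 10% and 5% RPS, 1161 values were computed under the alternatives: 1113 kept their direction and their side of the threshold, 38 passed it where the main test did not, and 10 changed sign. The main test called 0 of the 9 genes, so no value could lose a call. Most of the alternatives left out only 1 mouse, so the 1113 are no measure of how firm the differences are. DESeq2 called 210 genes at 10% against 0% RPS, 138 of them higher and 2 of them among the 9 genes, where edgeR called 7, all higher. It called 29 genes at 5% RPS, 1 of them among the 9, and 1 gene each at 2% RPS, between 5% and 2% and between 10% and 5%. It gave 973 genes a trend, 3 of them among the 9, against 375 by edgeR, and 349 genes any diet difference against 13. RLE scaling gave 13 calls at 10% RPS, 11 of them higher, 8 genes with any diet difference, and 1 of the 9 genes with a trend. The fit of only the 2 diets compared gave 3 calls at 10% and 1 at 5% RPS. Under the treatment label, calls at 10% RPS, trends and any diet differences were 0 each. Without the 3 mice with disagreeing labels they were 0, 56 and 0.

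With each mouse left out in turn, calls ranged from 5 to 188 at 10% RPS (188 without mouse RS10_727, 109 without RS10_703, 59 without RS10_704, 36 without RS10_721) and from 0 to 1 at 5% RPS. Trends ranged from 24 without mouse RS10_784 to 1148 without mouse RS10_727, and genes with any diet difference from 0 without mouse RS10_725, RS10_729 or RS10_784 to 42 without mouse RS10_727. Of the 9 genes, 0 to 1 were called at 10% RPS and 0 to 4 had a trend, 4 of them without mouse RS10_727. The cause was not tested. Among these values, changes of sign were limited to small ones, except Zbp1 between 10% and 5% RPS, which ranged from -0.274 to 0.607 with each mouse left out, and was 0.61 by DESeq2 without mouse RS10_719 and 0.41 without mice RS10_719 and RS10_721. With each mouse left out, Ifih1 at 2% RPS ranged from -0.0991 to 0.0118 and Ripk3 from -0.0627 to 0.235. At 5% RPS, Rigi was -0.0290 and Mavs -0.0218 without mice RS10_719 and RS10_721, and Dhx58 was 0.000767 under the treatment label. No paired analysis was possible because each mouse number belongs to 1 animal and none is shared between diets.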
